A study of Mus musculus with 4 samples.

Results

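The genes described here are the ribosomal protein genes of the mouse and their germ-cell paralogs, followed through the cells of the testis. They were taken by symbol: Rpl or Rps followed by a number, or Rplp0, Rplp1, Rplp2 or Rpsa, with optional letters, without symbols containing -ps and without the Rps6k kinases, and with at least 100 UMIs (unique molecular identifiers, each standing for one captured transcript) over the 4 count matrices. Of 93 matching symbols, 92 passed that minimum, out of 39634 features with a UMI. Rps12l1 was left out with 25 UMIs, and Rpl3l was just inside with 103. By annotation and coding-sequence comparison the 92 comprised 73 autosomal ribosomal protein genes (43 of the large and 30 of the small subunit), 4 X-linked ones (Rpl10, Rpl36a, Rpl39 and Rps4x), 14 paralogs, and Rps19bp1, whose product binds a ribosomal protein and is not itself one. The label did not hold for all of them: besides Rps19bp1, the paralogs Rpl6l, Rpl32l, Rps3a2 and Rps3a3 are annotated as processed pseudogenes, Rps4l and Rpl37rt are annotated as transcribed processed pseudogenes, and Rpl3l, known from striated muscle, had few UMIs.

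A ribosome is built from ribosomal RNA and a fixed set of proteins, and nearly all cells transcribe the genes for these proteins at high and coordinated levels. In the male germ line the X chromosome is silenced during meiosis, so X-linked housekeeping genes lose their transcripts there. Several X-linked ribosomal protein genes have autosomal copies, often retrogenes, that are transcribed in germ cells.

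Single-cell RNA was measured in dissociated mouse testis, in 2 libraries labelled HFD (high-fat diet) and 2 labelled ND, with the 10x Genomics 3′ v3 chemistry. The labels give no strain, age, genotype or diet duration, and do not say whether each library came from a separate mouse, so p-values between diets measure only the spread between libraries, which may be technical. The matrices held 13561 to 15290 barcodes and 143748262 to 154221188 UMIs per library, and pairs of libraries shared 42 to 65 barcode sequences. Cells were put into classes by marker genes that include none of the 92, and 57.0% to 60.4% of kept cells fell into exactly 1 class. The classes were spermatogonia-like (166 cells), early spermatocyte-like (3080), pachytene-like (4969), late spermatocyte-like (3947), round spermatid-like (10623), elongating spermatid-like (8473), Sertoli-like (839), Leydig-like (1207), macrophage-like (332), lymphocyte-like (234) and fibroblast-like (266). Each marker list summed highest in its own class, except that the pachytene markers averaged 5882 CPM (UMIs per 1000000 of the class) in pachytene-like and 5916 CPM in late spermatocyte-like cells. The spermatogonia-like class held its own markers at a mean of 2033 CPM, against 1422 in late spermatocyte-like cells. It also held early spermatocyte markers at 1797 CPM, against 3854 in early spermatocyte-like cells, pachytene markers at 3589 CPM, elongating spermatid markers at 4395 to 14082 CPM and Leydig markers at 25.8 to 309 CPM, and their part in the step to early spermatocyte-like cells was not tested. The Sertoli-like class held elongating spermatid markers at 33013 to 36484 CPM, above the round spermatid-like class (mean 22767) and the barcodes in no class with fewer than 2000 UMIs (mean 21273), and their part in its values was not tested. The spermatogonia-like class is small, and with 35 to 47 cells per library it was not compared between diets.

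The paralogs are close in sequence to their X-linked parents, which matters for counts made from short 3′ reads. Rpl10 encodes a large-subunit protein at the peptidyl-transfer region (chrX:74270812-74273135, plus strand, GRCm38), and Rpl10l is its autosomal copy (chr12:66283379-66284401, minus strand). Their coding sequences were identical at 544 of 642 bases (84.7%). The opening 150 coding bases are shown from the GENCODE M21 transcripts, with the 25 bases that differ between them in capitals.
Rpl10: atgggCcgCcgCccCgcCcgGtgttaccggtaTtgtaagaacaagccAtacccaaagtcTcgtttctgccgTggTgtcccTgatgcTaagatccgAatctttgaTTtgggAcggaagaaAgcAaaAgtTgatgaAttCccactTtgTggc
Rpl10l: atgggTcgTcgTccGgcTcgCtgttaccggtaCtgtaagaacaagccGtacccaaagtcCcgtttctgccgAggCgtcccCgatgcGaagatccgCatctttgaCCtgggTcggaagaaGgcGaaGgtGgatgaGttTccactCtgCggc
Rpl39 (chrX:37082520-37085402, minus strand) encodes a very small protein lining the exit tunnel of the nascent chain, and Rpl39l is its copy on chr16:10170226-10174911 (plus strand). The complete coding sequences without the stop codon, 153 bases each, were identical at 130 positions (85.0%), and the 23 differing bases are in capitals.
Rpl39: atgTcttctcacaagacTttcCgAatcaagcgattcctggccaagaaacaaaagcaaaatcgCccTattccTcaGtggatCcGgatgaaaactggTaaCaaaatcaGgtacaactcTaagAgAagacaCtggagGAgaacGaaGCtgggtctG
Rpl39l: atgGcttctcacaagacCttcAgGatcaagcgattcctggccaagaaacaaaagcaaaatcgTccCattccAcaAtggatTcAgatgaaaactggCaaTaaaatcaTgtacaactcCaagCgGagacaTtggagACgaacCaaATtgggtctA
Rps4l (chr6:148354656-148355598, plus strand, annotated as a transcribed processed pseudogene) matched the coding sequence of Rps4x (chrX:102184941-102189394, minus strand) at 626 of 783 aligned bases (79.9%). Rpl36al (chr12:69182731-69184083, minus strand) matched Rpl36a (chrX:134585654-134588062, plus strand) at 279 of 318 coding bases (87.7%). Rpl22l1 (chr3:28805436-28807424, plus strand) was farther from its autosomal parent Rpl22 (chr4:152325742-152334071, plus strand), with 66.9% identity.

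Shared sequence bears on how firmly each count belongs to its gene. Of the 91-base windows in the last 400 transcript bases, the stretch that 3′ libraries read, none of Rpl10l or Rpl39l occurred in another gene of the annotation. For the parents the share of such windows was 85.6% for Rpl10, 79.4% for Rpl36a, 30.6% for Rps4x and 6.13% for Rpl39. It was 73.4% for Rpl36al and 35.7% for Rpl22l1. Over the 92 genes the median was 33.6%, with 30 genes at 50% or more and 12 with no such window, so counts of these genes may hold reads of near-identical copies. The share was 89.0% for Rps27a, 86.5% for Rps6, 84.8% for Rpl24, 62.8% for Rpl10a and 60.0% for Rps12, while Rps3, Rps20 and Rps19bp1 had no such window. For Rps27rt (100% coding identity to Rps27) the share was 89.8%, and for Rps27 it was 45.1%. For Rpl37rt (99.7% coding identity to Rpl37) it was 30.8%, and Rpl37 had no such window.

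Promoter windows of 250 bases before to 50 after the start were in the RefSeq table (GRCm38.p6) for 68 of the 92. The letters CCGGAAG, an ETS-type core, searched on both strands, occurred in 26 of the 68 (38.2%) and in 9.93% of all 27025 genes in the table. AAGATGGC, a YY1-type core, occurred in 6 (8.82%, against 3.19%), and TGACGTCA, the cyclic-AMP response element, in 5 (7.35%, against 2.03%). Rpl39 and Rpl39l both held CCGGAAG, whereas the windows of Rpl10, Rpl10l, Rps4x and Rpl36a held none of the 3 motifs. The stretch around the 2 copies in the Rpl39l window, 146 and 92 bases before the start (chr16:10170062-10170162, plus strand), is shown with the motif in capitals, since Rpl39l was the most abundant of the paralogs.
Rpl39l promoter: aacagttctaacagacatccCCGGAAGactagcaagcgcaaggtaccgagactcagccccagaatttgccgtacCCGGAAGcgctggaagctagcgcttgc

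The share of a cell class's UMIs that came from the 92 genes fell along spermatogenesis. It was 6.97% ± 0.564 (SD, n = 4 libraries) in spermatogonia-like cells, 5.98% ± 0.165 in early spermatocyte-like, 4.75% ± 0.117 in pachytene-like, 4.005% ± 0.0798 in late spermatocyte-like, 3.27% ± 0.0552 in round spermatid-like and 2.82% ± 0.0564 in elongating spermatid-like cells. Within every library the order of these 6 classes was the same, and the libraries of neighbouring classes did not overlap. Among somatic classes the share was 9.47% ± 0.217 in lymphocyte-like cells, 6.87% ± 0.351 in Leydig-like, 6.61% ± 0.482 in macrophage-like, 5.46% ± 0.127 in fibroblast-like and 4.92% ± 0.180 in Sertoli-like cells. Lymphocyte-like cells thus held 3.35 times the share of elongating spermatid-like cells. Barcodes in no class with fewer than 2000 UMIs serve as a gauge for low levels and had 4.04% ± 0.170. They may hold free RNA, shallow germ cells or both, which was not tested. Pachytene markers summed to 4588 CPM there, against 5882 CPM in pachytene-like cells, and the pachytene, late spermatocyte and round spermatid gates asked for at least 5000 UMIs. The round and elongating spermatid-like classes lay below that gauge and the late spermatocyte-like class at it. These shares are fractions of each class's own UMIs and do not give RNA per cell.

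**Figure D1:**
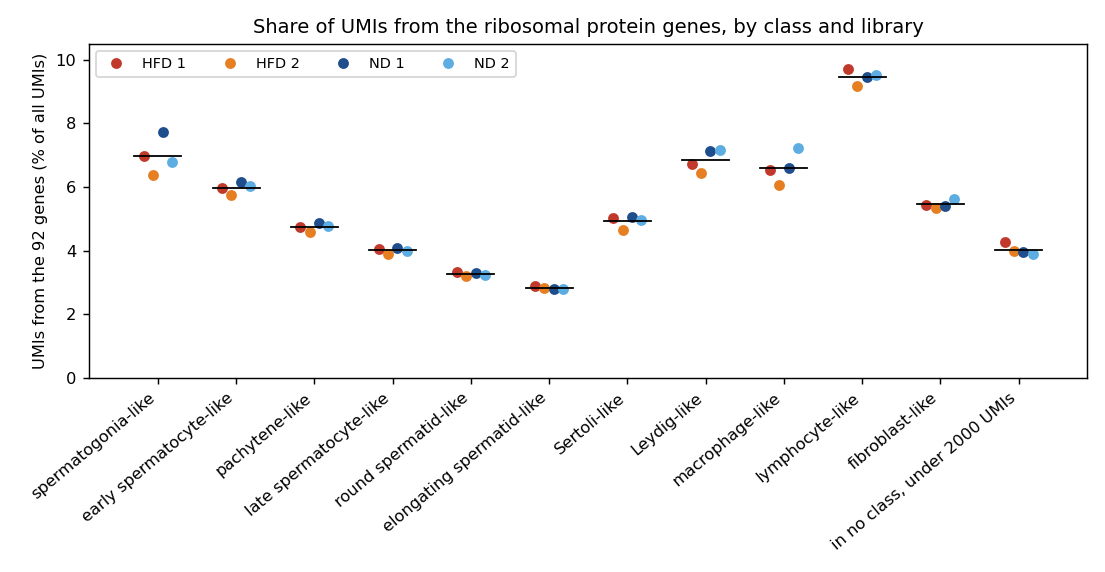
Share of UMIs from the 92 genes (y axis, percent of all UMIs of the class) in each marker-defined class (x axis). Points are libraries and bars are the mean of the 4, which goes from 6.97% in spermatogonia-like to 2.82% in elongating spermatid-like cells and reaches 9.47% in lymphocyte-like cells.

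The autosomal genes did not all follow the summed share. By their mean levels, 34 of the 73 were lower at each successive germ-cell class, 52 had their highest germ-cell level in spermatogonia-like and 20 in early spermatocyte-like cells, and 56 were lowest in elongating spermatid-like cells. Over the 73 the median log2 ratio of elongating spermatid-like to spermatogonia-like cells was -1.48, from -4.51 for Rpl14 to 0.27 for Rps20. Rpl14, a large-subunit protein gene, went from 971 CPM ± 138 (SD, n = 4) to 712 ± 42.5, 338 ± 17.1, 145 ± 3.32 and 33.7 ± 1.45, and stood at 42.5 ± 2.96 CPM in elongating spermatid-like cells. Rps20, a small-subunit protein gene, kept 1477 CPM ± 67.3 in spermatogonia-like and 1142 ± 31.7 in round spermatid-like cells and stood highest, at 1784 ± 45.3, in elongating spermatid-like cells. Over all 11 classes, 55 of the 73 were highest in lymphocyte-like cells.

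The 4 X-linked genes dropped sharply between spermatogonia-like and early spermatocyte-like cells. Rpl10 stood at 124, 114, 138 and 109 CPM in spermatogonia-like cells of HFD 1, HFD 2, ND 1 and ND 2. It stood at 3.93, 3.44, 5.20 and 3.42 CPM in early spermatocyte-like cells of the same libraries. All 4 libraries fell, without overlap, by 4.93 on the log2 scale (SE 0.21, adjusted p = 1.4e-21 in edgeR's quasi-likelihood test with Benjamini-Hochberg adjustment). Rpl36a, a large-subunit protein gene, went from 230, 198, 273 and 225 CPM to 2.05, 2.52, 3.10 and 2.59 CPM, a log2 ratio of -6.49 (SE 0.18), the widest change of any of the 91 genes tested at this step. Rps4x, which encodes a small-subunit protein, went from 32.2, 39.6, 48.8 and 25.8 CPM to 1.37, 1.53, 1.55 and 1.75 CPM (log2 ratio -4.53, SE 0.33). Rpl39 went from 80.6, 119, 122 and 72.0 CPM to 7.17, 6.79, 9.48 and 6.43 CPM (log2 ratio -3.70, SE 0.20). Each of the 4 was lower in 4 of 4 libraries. Their levels in early spermatocyte-like cells lay below those of the barcodes in no class with few UMIs, given next. The sizes and order of these falls are therefore not read as exact.

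After that step the X-linked transcripts stayed near the floor of the data. At the next step, to pachytene-like cells, Rpl39 fell by 2.07, Rpl36a by 1.99, Rpl10 by 0.80 and Rps4x by 0.66 on the log2 scale, the last with adjusted p = 0.0085 by edgeR's quasi-likelihood test and not called under 4 of the other settings tried. None of the 4 passed the test between pachytene-like and late spermatocyte-like cells. Between late spermatocyte-like and round spermatid-like cells Rpl10 rose, from 1.73, 3.03, 2.23 and 2.34 CPM to 6.415, 6.65, 6.17 and 5.81 CPM (log2 ratio 1.43, SE 0.13). The other 3 X-linked genes were not called there, with log2 ratios from 0.18 to 0.34. In barcodes with few UMIs and no class, Rpl10 stood at 14.1 CPM ± 1.32, Rpl39 at 15.4 ± 2.55, Rps4x at 9.86 ± 0.973 and Rpl36a at 6.52 ± 1.88, above their levels in every class from early spermatocytes to elongating spermatids. Levels there lay below that gauge and are not read as expression, and how much of them was free RNA was not tested.

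In somatic cells the parents were abundant. In Leydig-like cells Rpl10 stood at 926, 999, 1066 and 1066 CPM, Rpl39 at 1073, 1069, 1165 and 1036, Rps4x at 810, 794, 859 and 909, and Rpl36a at 379, 377, 420 and 428. The X-linked genes together made up 0.334% of UMIs in Leydig-like, 0.350% in lymphocyte-like, 0.0491% in Sertoli-like and 0.00156% in early spermatocyte-like cells. The Sertoli-like levels were lower than in the other somatic classes, at 75.4 CPM ± 8.40 for Rpl10 and 269 ± 37.6 for Rpl39.

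Rpl39l was the most abundant paralog and Rpl10l a less abundant one, and their levels are given beside the same gauge as the parents. Their levels in the barcodes with few UMIs were 1376 CPM ± 80.5 and 113.5 CPM ± 11.9. The germ-cell classes from early spermatocytes on held the markers of other cells well below the gauge: Leydig markers stood at 15.3 to 22.2 CPM by class, against 76.6 CPM in the barcodes with few UMIs, and Sertoli markers at 8.41 to 20.4 CPM, against 42.7 CPM. How much of a paralog's level in these classes was free RNA was not tested. Rpl39l stood at 986, 988, 1034 and 1007 CPM in spermatogonia-like and 1312, 1287, 1332 and 1361 CPM in early spermatocyte-like cells, where it was called higher (log2 ratio 0.39, SE 0.06). It was 1196 CPM ± 29.5 in pachytene-like cells and rose to 1609, 1569, 1632 and 1651 CPM in late spermatocyte-like cells, the highest level of any class and the only one above the gauge in all 4 libraries (log2 ratio 0.43, SE 0.01). From round spermatid-like to elongating spermatid-like cells it fell, from 1341, 1282, 1316 and 1373 CPM to 684, 662, 627 and 661 CPM (log2 ratio -1.01, SE 0.02). Its log2 ratios of -0.15 from early to pachytene-like and -0.28 from late to round spermatid-like cells changed sign under the other scalings tried, to 0.10 and 0.025 with TMM factors, so no direction is given for them.

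Rpl10l was less abundant and had its highest germ-cell mean in early spermatocyte-like cells, whereas that of Rpl39l was in late spermatocyte-like cells. It stood at 158, 132, 135 and 112 CPM in spermatogonia-like cells and at 180, 189, 183 and 159 CPM in early spermatocyte-like cells. The libraries of both classes did not overlap, with HFD 1 of the former just under ND 2 of the latter, and the step was called (log2 ratio 0.39, SE 0.10, adjusted p = 0.00083 by edgeR's quasi-likelihood test). It was 142 CPM ± 8.71 in pachytene-like cells. Its mean lay above the gauge in every class up to late spermatocyte-like cells, where it stood at 166, 174, 168 and 160 CPM, and in round spermatid-like cells it fell to 105, 109, 104 and 102 CPM (log2 ratio -0.67, SE 0.02). In elongating spermatid-like cells it fell further, to 35.4, 39.9, 30.8 and 33.5 CPM (log2 ratio -1.60, SE 0.05).

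Rps4l lay above its gauge of 346 CPM ± 14.6 by its mean in the germ-cell classes except the pachytene-like and elongating spermatid-like ones, and the mean of Rpl36al lay below its gauge of 72.7 CPM ± 6.08 in all 6. Rps4l stood at 454, 431, 457 and 397 CPM in spermatogonia-like cells, 284 CPM ± 9.13 in pachytene-like and 421 ± 30.3 in late spermatocyte-like cells. It then fell by 1.79 on the log2 scale from round to elongating spermatid-like cells, to 107, 108, 105 and 104 CPM. Rpl36al was at a nearly level 63.8 CPM ± 19.6, 64.7 ± 5.37, 59.1 ± 4.54 and 60.5 ± 6.28 through the classes up to late spermatocytes. It was then 48.3 ± 6.47 CPM in round and 32.6 ± 4.02 in elongating spermatid-like cells, a log2 ratio of -0.57 that became 0.037 with TMM factors.

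The share of each pair's UMIs that came from the paralog was high both in the meiotic and later classes and in the gauge. In the barcodes with few UMIs it was 88.8% ± 1.97 for Rpl10l, 98.9% ± 0.238 for Rpl39l, 97.2% ± 0.227 for Rps4l and 91.9% ± 1.64 for Rpl36al, so high shares in germ cells are given as values only. In a 3′ library one UMI marks one transcript end, so the counts of 2 genes were not divided by length. Rpl10l made up 52.5% ± 2.86 (SD, n = 4) of the Rpl10 and Rpl10l pair in spermatogonia-like cells, 97.8% ± 0.408 in early spermatocyte-like, 98.6% ± 0.284 in late spermatocyte-like, 90.5% ± 2.002 in elongating spermatid-like and 4.43% ± 0.696 in Leydig-like cells. Rpl39l made up 91.1% ± 2.07 of its pair in spermatogonia-like cells already, 99.4% ± 0.102 in early spermatocyte-like and 26.6% ± 2.35 in Leydig-like cells. Rps4l went from 92.3% ± 1.63 to 99.6% ± 0.0292 over the same step and was 14.9% ± 1.10 in Leydig-like cells. Rpl36al went from 21.2% ± 2.83 to 96.2% ± 0.639 and was 16.8% ± 0.848 in Leydig-like cells. In spermatogonia-like cells the shares of Rpl10l and Rpl36al, and in Leydig-like cells those of all 4, lay far below the shares in the barcodes with few UMIs. In Leydig-like cells Rpl39l (393 CPM), Rpl10l (46.8 CPM) and Rps4l (148 CPM) lay below their gauges and are not read as expression, whereas Rpl36al stood at 81.0 CPM ± 9.63, above its gauge.

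**Figure D2:**
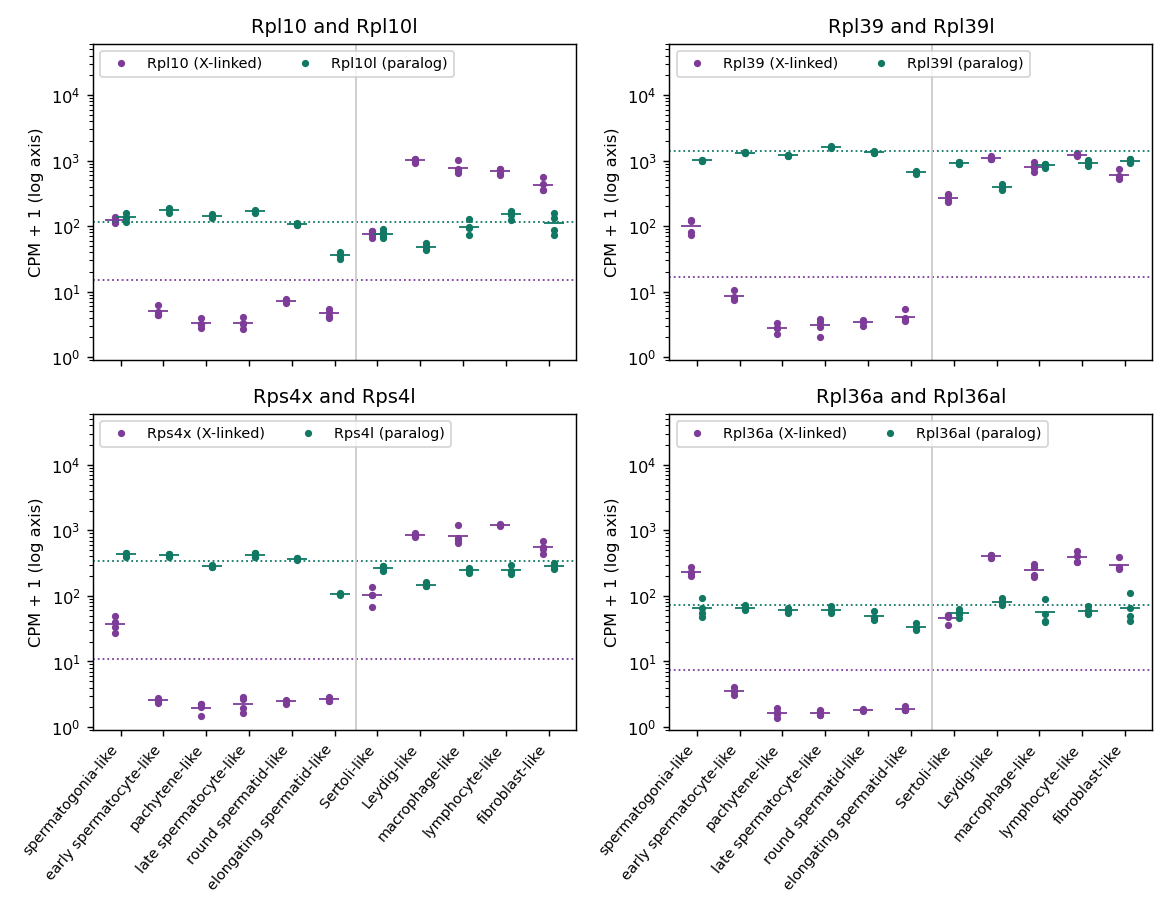
Levels of the 4 X-linked genes (purple) and their autosomal paralogs (green) in each class, as CPM + 1 on a log axis. Points are the 4 libraries, bars their mean, and dotted lines the mean level in barcodes of no class with under 2000 UMIs; Rpl10 goes from a mean of 121 CPM in spermatogonia-like to 3.995 CPM in early spermatocyte-like cells and Rpl39l lies above its dotted line in all 4 libraries in late spermatocyte-like cells alone.

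In the pair of Rpl22 and Rpl22l1, both autosomal, the parent fell through meiosis. In the barcodes with few UMIs Rpl22 stood at 143 CPM ± 7.17 and Rpl22l1 at 396 CPM ± 13.2, with 73.5% ± 0.921 of the pair from Rpl22l1. Of the germ-cell classes, late spermatocyte-like cells alone had Rpl22l1 above that mean, where HFD 2 was at 395.8 CPM, and Rpl22 was below its own from late spermatocyte-like cells on. Rpl22, a large-subunit protein gene, stood at 631 CPM ± 43.5 in spermatogonia-like, 430 ± 36.4 in early spermatocyte-like, 175 ± 17.5 in pachytene-like and 109 ± 8.27 in late spermatocyte-like cells. It fell at all 3 steps, by 0.56, 1.30 and 0.69 on the log2 scale. Rpl22l1 stood at 333 ± 18.8, 257 ± 9.47, 369 ± 15.7 and 417 ± 18.5 CPM in the same classes, with log2 ratios of -0.38 at the step out of spermatogonia, which was -0.028 and not called with TMM factors, and 0.52 and 0.18 at the next steps. The share of Rpl22l1 in the pair went from 34.6% ± 2.22 and 37.5% ± 2.23 to 67.8% ± 2.28 in pachytene-like and 79.3% ± 1.01 in late spermatocyte-like cells, and stood at 60.2% ± 0.439 in elongating spermatid-like cells. Of the other paralogs, Rps27l (60.0% coding identity to Rps27) stood at 384 CPM ± 12.5 in spermatogonia-like, 162 ± 8.19 in round spermatid-like and 74.65 ± 2.30 in elongating spermatid-like cells, and Rpl7l1 went from 71.6 CPM ± 4.63 to 6.82 ± 1.27 CPM between the ends of the series. Rpl3l gave 13 UMIs in spermatogonia-like and at most 24 in any other class. The annotated processed pseudogenes Rpl6l, Rpl32l, Rps3a2 and Rps3a3 each stayed under 5 CPM in every germ-cell class, with coding identity to their parents of 96.0% to 99.5%.

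Tested gene by gene, with each library as a block and levels in CPM, most members were lower at each step. Of all genes tested, 54.0% passed an adjusted p of 0.05 between spermatogonia-like and early spermatocyte-like cells, and of the 91 members tested 15 were higher and 46 lower (16.2% and 37.9% of all genes). The corresponding share was 79.7% at the step to pachytene-like cells, where 1 of 91 members was higher (Rpl22l1) and 88 were lower (26.8% and 52.9% of all genes). It was 78.0% at the step to late spermatocyte-like cells, with 7 of 89 members higher and 72 lower (36.6% and 41.4% of all genes). The next 2 steps had 89.4% and 81.6% of all genes called, with 11 of 90 members higher and 72 lower in round spermatid-like cells (40.2% and 49.2% of all genes) and 14 of 89 higher and 61 lower in elongating spermatid-like cells (18.9% and 62.6%).

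These splits depended on how the classes were scaled, because a class's total UMIs include the other genes that change. With TMM factors, which centre the bulk of genes, the 5 steps had 41 members higher and 18 lower, 15 and 57, 11 and 67, 43 and 32, and 64 and 14. Of all genes 54.2%, 75.1%, 77.8%, 87.0% and 76.4% were called in those fits. DESeq2 with its own factors gave 36 and 18, 23 and 47, 10 and 63, 42 and 28, and 63 and 12, with 46.5%, 65.2%, 68.7%, 81.2% and 67.8% of all genes called. The members' median minus that of all genes moved little between scalings. At the first step this difference was 0.22 with plain totals, 0.23 with TMM factors and 0.20 with DESeq2. With plain totals the members' median lay 0.22 higher on the log2 scale at the first step and 0.05 lower at the next. At the step to late spermatocyte-like cells it lay 0.25 lower. It lay 0.01 higher at the step to round and 0.41 higher at the step to elongating spermatid-like cells. Relative to other transcripts, the members' median was thus below only at the steps to pachytene-like and late spermatocyte-like cells. The medians of all genes were -0.48, -0.33, -0.05, -0.26 and -0.63 with plain totals.

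**Figure D3:**
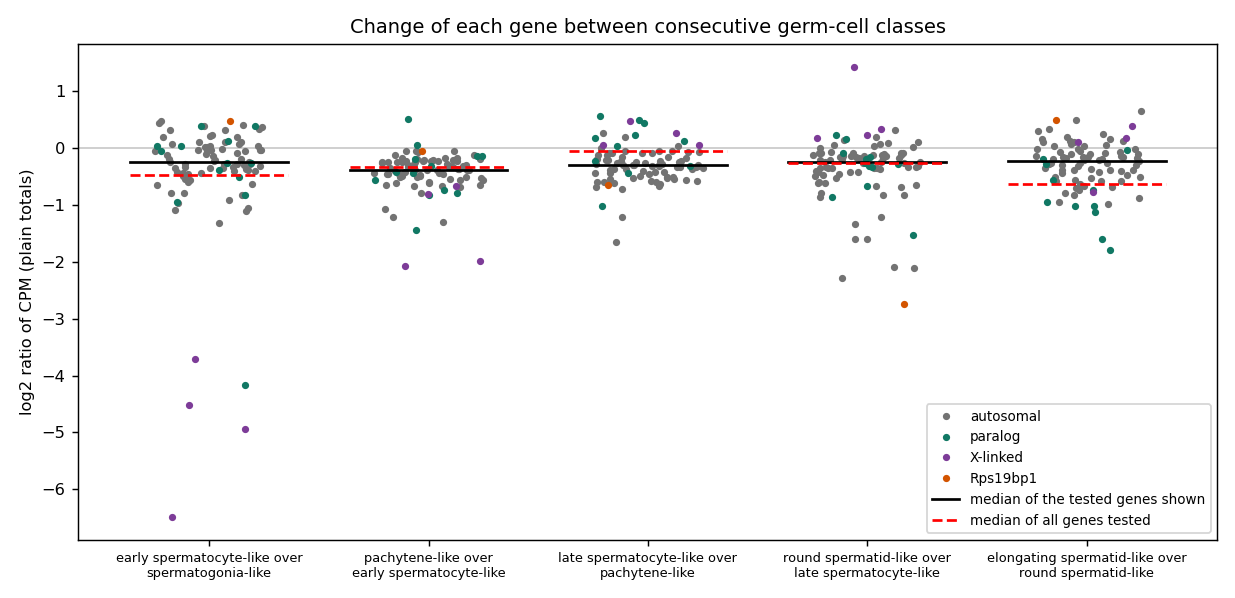
Log2 ratio of each tested gene between consecutive germ-cell classes (y axis, CPM of all UMIs of the class), with 1 column of points per step. Colours mark autosomal genes, paralogs, X-linked genes and Rps19bp1; solid bars are the median of the genes shown and dashed bars that of all genes tested, and the 4 X-linked genes lie between -3.70 and -6.49 at the first step.

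Named members differed in the step at which they moved. At the step out of spermatogonia-like cells larger falls among autosomal genes included those of Rplp2, a protein of the ribosomal stalk that engages elongation factors (1402 CPM ± 196 to 564 ± 22.6, log2 ratio -1.31), Rps2 (-1.08) and Rps21 (-1.05). Rps19bp1, Rpl9, Rps6 and Rpl24 rose, by 0.48, 0.47, 0.40 and 0.38 on the log2 scale. With stricter gates the calls of Rps19bp1 (0.43), Rps6 (0.16) and Rpl24 (0.24) were lost, as were those of Rps19bp1 without ND 2 (0.34) and of Rpl24 without the library block (0.37). At the step to pachytene-like cells all 73 autosomal genes were called lower with plain totals, led, after Rpl22, by Rpl10a (-1.21), Rpl14 (-1.07), Rpl19 (-0.79) and Rps2 (-0.69). At the step to late spermatocyte-like cells Rpl10a (-1.66), Rpl14 (-1.22), Rps27a (-0.71), Rpl22 (-0.69) and Rpl17 (-0.66) fell most, while Rps26 (0.27) and Rps29 (0.20, a call lost under 1 alternative) were the 2 autosomal genes called higher. Of 11 paralogs tested there, 5 were higher and 3 lower, beside 36.6% higher and 41.4% lower of all genes.

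The largest falls of autosomal members came between late spermatocyte-like and round spermatid-like cells. Rps27a, which encodes a ubiquitin and small-subunit fusion protein, went from 594 CPM ± 24.4 to 121 ± 8.53 (log2 ratio -2.29, SE 0.02). Rps3, a small-subunit protein also known from DNA repair, went from 315 ± 16.1 to 73.6 ± 2.58 (-2.09), and Rpl14 fell by 2.11. Rps19bp1 went from 61.6 ± 3.62 to 9.22 ± 0.814 CPM (-2.74). Rpl35 (0.32), Rps26 (0.20), Rps28 (0.14) and Rpl30 (0.11, a call lost under 1 alternative) rose. In elongating spermatid-like cells 10 of 11 tested paralogs were called lower and none higher with plain totals, beside 62.6% lower and 18.9% higher of all genes. Of 73 autosomal genes 50 were lower and 12 higher, and the higher ones included Rps20 (0.64), Rpl41 (0.50), Rpl14 (0.33) and the stalk gene Rplp1 (0.24). With TMM factors 64 members were higher and 14 lower at this step. Rpl27 (-0.98), Rpl35a (-0.95), Rpl30 (-0.88) and Rpl34 (-0.82) fell most among the autosomal genes.

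The genes that make and use ribosomes were counted in the same lists at every step, with plain totals alone, so these splits carry the same dependence on scaling as those of the members. They stand beside the 54.0%, 79.7%, 78.0%, 89.4% and 81.6% of all genes called at the 5 steps. Of 37 ribosome biogenesis genes, 7 were higher and 11 lower at the first step, and 9 and 27, 8 and 26 (of 35 tested), 4 and 27 (of 35), and 2 and 25 (of 35) at the later ones. Their median log2 ratio was -0.91 at the step to round spermatid-like cells, where all genes had -0.26. Dkc1, an X-linked pseudouridine synthase, fell by 5.99 and the ribosomal RNA transcription factor Ubtf fell by 4.604 at the first step, nucleolin (Ncl) fell by 2.22 at the next, and the ribosome export factor Lsg1 fell by 2.91 at the step to round spermatid-like cells. Among 31 initiation factors the counts were 11 higher and 12 lower, 10 and 19, 5 and 19, 8 and 21, and 7 and 23 of 30. The elongation list holds 9 genes, elongation factors and related genes, with Eef1e1, Eef1akmt1 and Tpt1 among them. For these 9 the counts were 2 and 2, 1 and 7, 0 and 9, 4 and 5, and 3 and 5. Eif4g1 rose by 3.62 at the step to round spermatid-like cells and Eif4h by 2.82 at the step to elongating spermatid-like cells, whereas Eif5b fell by 2.81 there. The translation repressor Eif4ebp1 fell by 5.86 at the first step. It is in the list for mTOR control of ribosomal protein messages, which also holds Rheb, Tsc1, Tsc2, Larp4 and Ybx2. Of that list's 14 genes 2 were higher and 8 lower at the first step. The later steps had 2 and 12, 3 and 10, 3 and 9 of 13, and 2 and 8 of 13.

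Between the diets the whole-testis sums showed 8 members higher and 7 lower in HFD of 92 tested, where 34.5% of all genes were called (15.4% higher and 19.1% lower). With relative log expression factors the split was 12 and 6 (35.1% of all genes called), and with DESeq2 it was 9 and 5 (36.8%). Rpl10 stood at 18.3, 19.3, 28.2 and 27.9 CPM (TMM-scaled) in HFD 1, HFD 2, ND 1 and ND 2, and fell by 0.58 on the log2 scale (SE 0.05, adjusted p = 2.6e-06 in edgeR's quasi-likelihood test with Benjamini-Hochberg adjustment). Rps4x stood at 15.5, 15.4, 21.8 and 23.6 CPM (log2 ratio -0.56, SE 0.05), Rpl36a at 8.27, 7.59, 11.7 and 11.9 (-0.57, SE 0.06) and Rpl39 at 22.0, 21.8, 30.9 and 28.6 (-0.44, SE 0.05). All 4 X-linked genes were thus lower in both HFD libraries than in both ND libraries.

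Levels of the X-linked genes were far higher in the somatic classes than in the germ-cell classes from early spermatocytes on, and each of the 5 somatic classes had fewer cells in both HFD libraries than in both ND libraries. The Leydig-like class held 211 and 250 cells in the HFD libraries and 381 and 365 in the ND libraries, the Sertoli-like 178 and 205 against 240 and 216, the macrophage-like 66 and 76 against 94 and 96, the lymphocyte-like 53 and 57 against 66 and 58, and the fibroblast-like 58 and 63 against 68 and 77. With all cells of the somatic classes left out of the sums, the log2 ratios were -0.14 for Rpl10 (adjusted p = 0.19 by edgeR's quasi-likelihood test), -0.05 for Rps4x (0.78), -0.22 for Rpl36a (0.18) and -0.06 for Rpl39 (0.63), and none was called. That alternative was added after the data were seen. Within the Leydig-like class the 4 were not called either, with log2 ratios of -0.17, -0.16, -0.19 and -0.06. In the other somatic classes none was called, with medians of -0.35 (macrophage-like), -0.28 (Sertoli-like), -0.26 (fibroblast-like) and -0.19 (lymphocyte-like). Their medians in the germ-cell classes ran from -0.41 in pachytene-like to 0.72 in late spermatocyte-like cells. In sums over a whole tissue, fewer cells of a type and less RNA per cell cannot be told apart.

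One library, ND 2, stood apart for several members. Rps29, a small-subunit protein gene, stood at 1611, 1579, 1530 and 1112 CPM in the whole testis and was called higher in HFD (log2 ratio 0.27, SE 0.09), and ND 2 was the lowest library in all 12 sums, the whole testis and the 11 classes. Without ND 2 its log2 ratio was 0.06 in the whole testis, 0.03 in late spermatocyte-like and 0.06 in elongating spermatid-like cells, and no call remained. ND 2 was also the lowest in 12 of 12 sums for Rps27 and Rpl38 in 11 for Rpl6 and in 9 for Rpl37, and the highest in 10 for Rps27rt and in 9 for Rpl37rt. Rps27rt stood at 19.6, 18.8, 20.04 and 25.3 CPM and Rpl37rt at 11.75, 11.55, 12.3 and 18.9 CPM in the whole testis; both were called lower in HFD (log2 ratios -0.24 and -0.42), and without ND 2 the ratios were -0.06 and -0.07, with neither called. Both calls were also lost without HFD 1 or HFD 2. Rps27rt and Rpl37rt are near-identical in coding sequence to Rps27 and Rpl37, and the assignment of reads between the copies was not tested. Rpl38, called higher in elongating spermatid-like cells at 457, 433, 443 and 312 CPM, overlapped between diets and had a log2 ratio of 0.01 without ND 2. Rps21, called higher in the whole testis and in late spermatocyte-like cells (log2 ratios 0.14 and 0.16), had 0.06 in both without ND 2, and 0.09 in the whole testis without HFD 1.

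Of the other whole-testis calls, Rps19bp1 stood at 54.0, 54.1, 45.7 and 47.5 CPM and rose by 0.21 (SE 0.04, adjusted p = 0.0013 by edgeR's quasi-likelihood test), a call kept under every alternative tried. Round spermatid-like cells made up 16.2% and 16.3% of kept cells in the HFD libraries against 20.4% and 20.4% in the ND libraries, and pachytene-like cells 9.52% and 10.7% against 7.08% and 7.27%. Rps19bp1, Rps3 and Rps27a fell from late spermatocyte-like to round spermatid-like cells, and the part of this make-up in the whole-testis calls was not tested. Rpl10l stood at 126, 133, 116 and 114 CPM (log2 ratio 0.17, SE 0.04), a call lost without HFD 2 (0.14). Rps3 (300, 305, 273 and 273 CPM, 0.15) and Rps27a (577, 575, 508 and 531 CPM, 0.15) were also higher, both lost without HFD 2. Rpl6 (254, 265, 243 and 211 CPM, 0.19) was lost without HFD 2 or ND 2 (0.10 without the latter). Rpl7l1 was called at 0.12 and lost without HFD 1, HFD 2 or ND 1. Rpl22 stood at 161.5, 153.5, 166 and 183 CPM (-0.15) and was lost without HFD 2 or ND 2 (-0.11 and -0.07). Rpl39l, the most abundant paralog, was called in no comparison of the diets. Rps19bp1 and Rpl10l were called in the whole testis but in none of the classes compared between diets.

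Within the germ-cell classes few members passed. Early spermatocyte-like cells, with 2.50% of all genes called (1.48% higher and 1.02% lower), had 0 members higher and 2 lower of 89: Rpl21 at 774, 731, 847 and 860 CPM (log2 ratio -0.18, SE 0.04) and Rpl22 at 417, 390, 446 and 471 CPM (-0.18, SE 0.04), both lost without HFD 2. Pachytene-like cells, with 2.93% of all genes called (1.45% higher and 1.48% lower), had 1 of 90, Rpl22 at 164, 161, 181.5 and 195 CPM (-0.21, SE 0.04, adjusted p = 0.014 by edgeR's quasi-likelihood test), kept without any single library but lost with stricter gates (-0.17) or no filter on low counts (-0.21). Round spermatid-like cells, with 1.74% of all genes called (0.988% higher and 0.752% lower), had 1 of 90, Rps27a at 129, 127.5, 115 and 115 CPM (0.16, SE 0.03), lost without HFD 1 or HFD 2, with DESeq2, with no filter, with stricter gates and with the replicate block. Rpl22 was lower in both HFD libraries than in both ND libraries in the early spermatocyte-like, pachytene-like and late spermatocyte-like classes. In the pachytene-like class late spermatocyte markers summed to 1178 and 1168 CPM in the HFD libraries against 1116 and 1114, and elongating spermatid markers to 2860 and 2984 against 3670 and 3827. In the early spermatocyte-like class early spermatocyte markers summed to 3726 and 3801 CPM against 4001 and 3888, and pachytene markers to 5704 and 5702 against 5476 and 5514. Rpl22 fell steeply along these stages, and the part of those markers in its diet ratio was not tested. In round spermatid-like cells it had a log2 ratio of -0.16 and was not called (adjusted p = 0.11 by edgeR's quasi-likelihood test).

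In late spermatocyte-like cells 11.4% of all genes were called (4.74% higher and 6.65% lower), and 8 members were higher and 2 lower of 88. DESeq2 called 0 and 1 (5.99% of all genes called) and plain totals 4 and 5 (10.9%). Rps4l stood at 400, 395, 443 and 447 CPM and fell by 0.16 (SE 0.04, adjusted p = 0.0046 by edgeR's quasi-likelihood test), a call lost without HFD 2. Rpl22 fell by 0.15, lost without HFD 2 (-0.097) or ND 2 (-0.13). Rpl10a (45.2, 45.5, 36.1 and 39.2 CPM, 0.27), Rpl6 (232, 238, 225 and 190.2 CPM, 0.18, and 0.066 without ND 2), Rps3 (328.5, 333, 301 and 298 CPM, 0.14) and Rps27a (0.11) were higher, each lost without at least 1 library. The X-linked Rps4x (1.90, 1.68, 0.612 and 0.951 CPM) and Rpl39 (2.48, 2.84, 1.06 and 1.85 CPM) were also called higher, at levels below those of barcodes in no class and from 11 to 64 UMIs per library. Their log2 ratios were 1.19 and 0.86, and each call was lost without ND 1 (0.91 and 0.52) and without 1 HFD library (HFD 1 for Rps4x, HFD 2 for Rpl39). Round spermatid markers summed to 441 and 420 CPM in the HFD libraries of this class and 507 and 530 in the ND libraries, and elongating spermatid markers to 3192 and 2844 against 3641 and 4140; their part in these calls was not tested.

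In elongating spermatid-like cells 7.64% of all genes were called (4.13% higher and 3.50% lower), and 7 members were higher and 3 lower of 88. DESeq2 called 2 and 0 (7.22% of all genes called) and plain totals 11 and 0 (7.37%). Rps27a stood at 149, 151, 118 and 127 CPM and rose by 0.29 (SE 0.05, adjusted p = 0.00038 by edgeR's quasi-likelihood test), kept under every alternative tried. Rps3 stood at 75.3, 81.6, 63.2 and 64.0 CPM (0.30, SE 0.06, lost without HFD 2) and Rpl6 at 142, 154, 131 and 111 CPM (0.29, SE 0.06, lost without HFD 2 or ND 2, and 0.17 without the latter). Rpl10a (18.7, 18.7, 14.1 and 15.6 CPM, 0.34) and Rpl4 (82.2, 83.7, 67.6 and 76.5 CPM, 0.20) were higher as well. Rpl27 (33.4, 33.3, 38.8 and 40.9 CPM, -0.26) and Rpl11 (428, 415, 448 and 493 CPM, -0.16) were lower, and these 4 calls were each lost without at least 2 of the libraries in turn, with 0.12 for Rpl4 without ND 1 and -0.087 for Rpl11 without ND 2. Rpl37rt (12.6, 10.4, 12.2 and 20.3 CPM, -0.48) overlapped between diets and had -0.074 without ND 2. Late spermatocyte markers summed to 364 and 389 CPM in the HFD libraries of this class against 303 and 316 in the ND libraries, a mean ratio of 1.22. Rps27a, Rps3, Rpl4 and Rpl10a were among the genes that fell from late spermatocyte-like to round spermatid-like cells, and the part of those markers in their diet ratio was not tested.

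**Figure D4:**
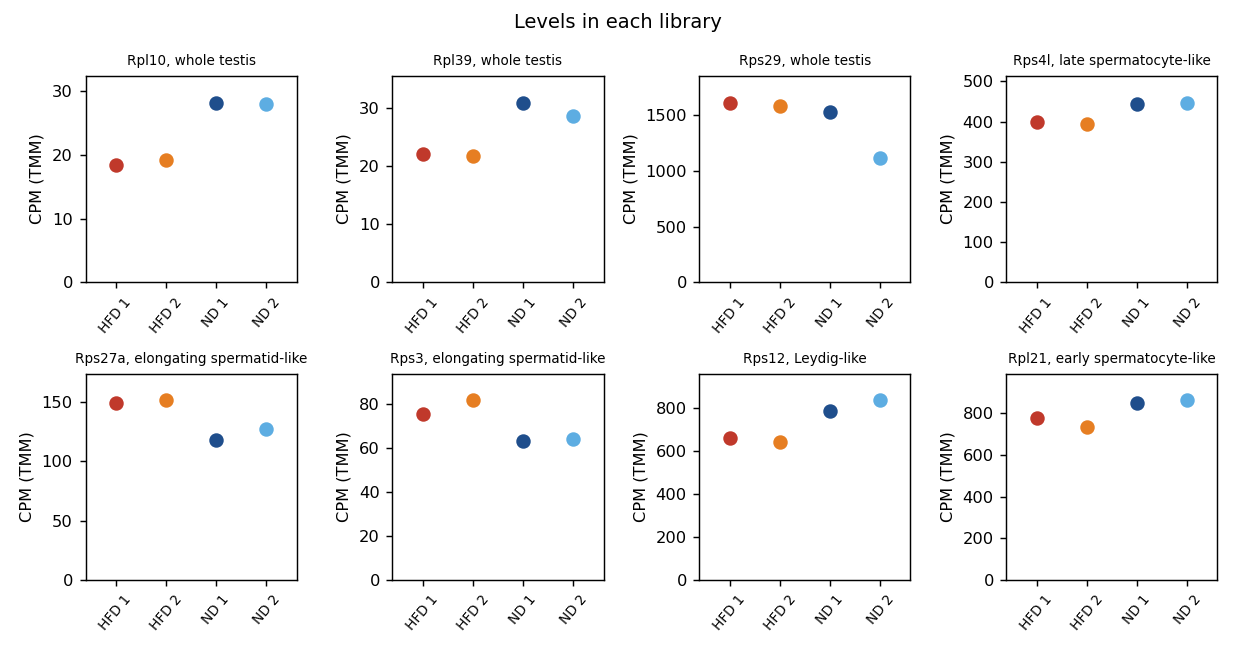
Level of 8 members in each library (y axis, TMM-scaled CPM from 0) for the sum or class named above each panel. Rpl10 and Rpl39 are lower in both HFD libraries, Rps29 is low only in ND 2 at 1112 CPM, and Rps27a and Rps3 are higher in both HFD libraries in elongating spermatid-like cells.

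Leydig-like cells, the testosterone-producing cells of the interstitium, had more members lower than higher. Members made up 6.73% and 6.43% of UMIs in the HFD libraries and 7.12% and 7.18% in the ND libraries, which did not overlap. Their share was also lower without overlap in early spermatocyte-like (5.98% and 5.76% against 6.16% and 6.03%), pachytene-like and macrophage-like cells. It was higher without overlap in elongating spermatid-like cells (2.90% and 2.83% against 2.79% and 2.78%) and in the barcodes with few UMIs, and the other classes overlapped. In the gene-by-gene test 2.52% of all genes were called (1.02% higher and 1.51% lower), and 0 members were higher and 4 lower of 87. Rps12 stood at 661, 643, 785 and 836 CPM (log2 ratio -0.31, SE 0.07, adjusted p = 0.0063 by edgeR's quasi-likelihood test), Rps3a1 at 1109, 1087, 1291 and 1283 (-0.23), Rplp1 at 1642, 1448, 1795 and 1872 (-0.25, and -0.16 without HFD 2) and Rps10 at 101.4, 95.8, 116 and 150 (-0.43, and -0.24 without ND 2). Of the 87, 74 had a log2 ratio below 0, against 50.8% of all genes, and such a lean was not confined to this class: it was 71 of 89 in early spermatocyte-like, 71 of 90 in pachytene-like, 70 of 86 in macrophage-like and 60 of 86 in Sertoli-like cells. Without HFD 2 the members' median went from -0.15 to -0.10 in Leydig-like, from -0.071 to -0.031 in early spermatocyte-like, from -0.059 to -0.018 in pachytene-like and from -0.078 to -0.014 in Sertoli-like cells. In Leydig-like cells 43 were lower at an unadjusted p under 0.05. No share of all genes at that threshold is given, so the 43 are not read as an excess. The members' median was -0.15 and that of all genes -0.00499. The 4 calls were not stable: DESeq2 and plain totals each left 1, relative log expression factors left 2, and stricter gates, no filter or cells of several gates kept left 0. Leydig markers summed to 16209 and 15097 CPM in the HFD libraries of the class and 19613 and 16505 in the ND libraries, and late spermatocyte markers to 537 and 523 against 438 and 435; their part was not tested.

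Other somatic classes gave no member call. In Sertoli-like cells 0 of 86 were called by edgeR's quasi-likelihood test, where 0.0132% of all genes were, with 5 at an unadjusted p under 0.05 and 0 by DESeq2. In macrophage-like cells it was 0 of 86 (1.26% of all genes called, 0.202% higher and 1.05% lower), with 15 at an unadjusted p under 0.05, all lower, 0 by DESeq2, and a members' median of -0.16 beside 0.01 for all genes. That median was -0.32 without ND 1, -0.25 without HFD 1 and -0.097 without ND 2. Macrophage markers summed to 13142 and 14438 CPM in the HFD libraries of that class against 15863 and 18781, and their part was not tested. In lymphocyte-like cells it was 0 of 82 (0.540%), with 6 at an unadjusted p under 0.05, and in fibroblast-like cells 0 of 80 (0.00%), with 4, and DESeq2 called 0 in both. The counts at an unadjusted p in these somatic classes have no share of all genes beside them and are not read as an excess. Counts of called members changed when ND 1 was left out, where the lone ND library is assumed to vary like the HFD ones: to 45 in the whole testis, 41 in early spermatocyte-like, 36 in pachytene-like, 34 in late spermatocyte-like, 48 in round spermatid-like, 26 in elongating spermatid-like and 17 in Leydig-like cells. The shares of all genes called in those fits were 30.4%, 5.88%, 8.95%, 12.4%, 11.5%, 5.89% and 2.53%. In the same order the counts were 12, 6, 5, 12, 0, 9 and 7 without HFD 1, with 25.5%, 1.02%, 2.19%, 8.93%, 0.00%, 6.20% and 1.68% of all genes called. They were 5, 3, 9, 7, 0, 3 and 1 without HFD 2, with 18.4%, 0.987%, 3.87%, 5.33%, 0.00986%, 1.36% and 1.65%. They were 19, 8, 7, 10, 10, 4 and 2 without ND 2, with 32.1%, 3.59%, 4.30%, 9.63%, 3.34%, 5.40% and 2.22%. Rpl39 and Rps4x were called lower in the whole testis and higher in late spermatocyte-like cells, and no other member was called in opposite directions.

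**Figure D5:**
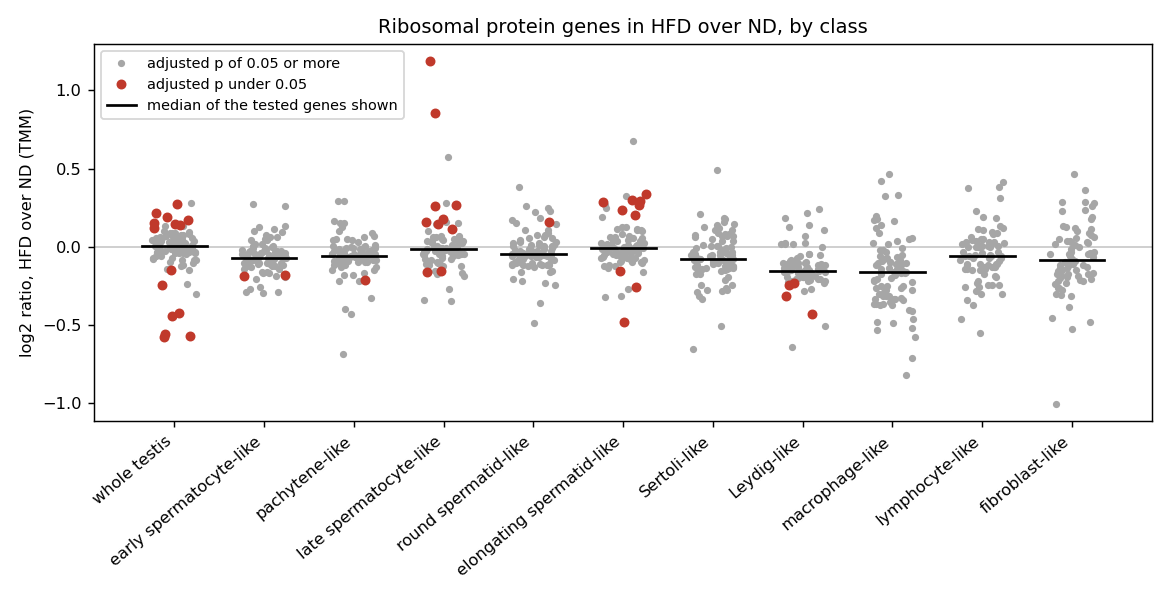
Log2 ratio of HFD over ND (y axis, TMM scaling) for each tested member, in the whole testis and in each class (x axis). Red points passed an adjusted p of 0.05 and black bars are the median of the members, which lies at 0.00 in the whole testis, -0.15 in Leydig-like and -0.16 in macrophage-like cells.

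Of the translation lists, ribosome biogenesis genes were called higher in HFD in 16 of 37 cases and lower in 2 in the whole testis, beside 15.4% and 19.1% of all genes. Within the classes 0 to 5 genes of the list were called, none of them lower, the most in elongating spermatid-like cells. The share of round spermatid-like cells was 16.2% and 16.3% against 20.4% and 20.4%, and its part in the whole-testis count was not tested. Lsg1 (log2 ratio 0.31, SE 0.04) and the RNA polymerase I subunit Polr1a (0.29, SE 0.05) were among those higher, and Nhp2, a component of the box H/ACA ribonucleoproteins, was among those lower (-0.16, SE 0.04). Of 31 initiation factors 4 were called higher and 6 lower in the whole testis. The counts were 1 and 3 for the 9 genes of the elongation list, and 6 and 1 for the 14 genes of the mTOR list. Eif2s3y, the Y-linked copy of an initiation factor subunit (-0.41, SE 0.06), the scaffold Eif4g1 (-0.22, SE 0.04), the elongation factor subunit Eef1d (-0.20, SE 0.04) and Tpt1 (-0.16, SE 0.04) were lower, and Eif6 (0.19, SE 0.04) and Eef1b2 (0.16, SE 0.04) higher. Within the classes, Eif4a1 was lower in round spermatid-like (-0.23), Eif5b in late spermatocyte-like (-0.13), and Eif4e and Tpt1 in elongating spermatid-like cells (-0.13 and -0.15). The initiation factor subunit Eif2s2 was higher in the whole testis (0.27) and in pachytene-like, late spermatocyte-like, round spermatid-like and elongating spermatid-like cells (0.18, 0.17, 0.14 and 0.38). Rack1, a ribosomal protein outside the symbol rule, was higher in the whole testis (0.14) and in late spermatocyte-like, round spermatid-like and elongating spermatid-like cells (0.18, 0.19 and 0.31). From late to round spermatid-like cells Rack1 and Eif2s2 fell (log2 ratios -1.93 and -1.19). Late spermatocyte markers were higher in the HFD libraries of the elongating spermatid-like class, and their part in these ratios was not tested. For genes of the translation lists no values without single libraries or under other settings are given, so how stable their diet calls were is not shown. In Leydig-like cells no gene of the biogenesis, initiation, elongation and mTOR lists was called.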

How the data were processed

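The deposited matrices hold UMI counts per gene and cell barcode, whole numbers that the authors made with software version 3.0.2, per the file headers, on mm10, per the submitters' processing notes. The aligner settings and the annotation are not given in the sources used here. Other text tables of the same samples were not used. The members, the gene lists and the tests were chosen with earlier results of these data known.

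Barcodes were dropped below 200 detected genes or above 20% mitochondrial UMIs. Cells were classed by UMIs per 10000 from marker lists, and cells passing the gates of several classes were left out, which stands in for doublet removal, since no doublet caller was run. Cells passing the spermatogonia gate and a spermatocyte gate, but no spermatid or somatic gate, were an exception and were kept as spermatogonia-like. The spermatogonia gate asked for at least 5 markers of its list, with no minimum of marker UMIs per 10000 or of total UMIs. Counts were summed per library and class. Diets were compared, HFD against ND with 2 libraries each, for genes passing edgeR's filterByExpr, with edgeR 4.0.16 (R 4.3.3) quasi-likelihood tests and TMM factors, in the whole testis and in classes with at least 50 cells in every library. Consecutive germ-cell classes were compared with plain totals and the library as a block. P-values were adjusted by Benjamini-Hochberg over all genes tested, with a threshold of 0.05. Standard errors (SE) were taken from the log2 ratio and its F statistic. Libraries held 143748262 to 154221188 UMIs, and the precision of the diet comparison is limited by the 2 libraries per diet.

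Genes were named by rule: X-linked members, paralogs and their parents; up to 4 members per direction and comparison with an adjusted p under 0.05 and at least 20 CPM on average, and for diets also with no overlap between the libraries of the diets; and up to 2 genes per direction of each translation list. Members called between diets but outside the rule are named too, chosen after their values were seen. DESeq2 1.42.0, relative log expression factors, plain totals, no filter, other mitochondrial and UMI limits, stricter gates, cells of several gates kept, the replicate block and the loss of each library were tried as alternatives. The edgeR fits were tested on simulated data, and the DESeq2 fits were not. Sequences came from GENCODE M21 transcripts and RefSeq promoters.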

Additional observations from a re-analysis of the deposited data

How the results depend on the processing

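Of 118 single-gene results, 112 kept their direction under every alternative. The 6 that reversed were step ratios under other scalings, given here with TMM factors, then DESeq2. From early to pachytene-like cells they were Rpl36al at 0.11 and 0.15 and Rpl39l at 0.10 and 0.14. From late to round spermatid-like cells they were Rpl22l1 at 0.14 and 0.15, Rps4l at 0.12 and 0.13 and Rpl39l at 0.025 and 0.038. From round to elongating spermatid-like cells it was Rpl36al at 0.037 and 0.047, whose fall with plain totals was not small. These scalings centre the bulk of genes. Of 75 step results, 56 were called in every alternative. Of 43 diet results 2 were, and 36 were lost without at least 1 library: 30 without HFD 2, 19 without ND 2, 15 without HFD 1 and 8 without ND 1.

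Counts of members called between diets with DESeq2 were 1 (early spermatocyte-like), 1 (late spermatocyte-like), 0 (round spermatid-like), 2 (elongating spermatid-like) and 1 (Leydig-like). In that order DESeq2 called 1.36%, 5.99%, 1.37%, 7.22% and 3.21% of all genes. With no filter on low counts they were 6 (whole testis), 10 (early), 0 (pachytene-like), 16 (late), 0 (round), 0 (Leydig-like) and 1 (lymphocyte-like). With stricter gates they were 1 (early), 0 (pachytene-like), 0 (round), 5 (elongating) and 0 (Leydig-like), and with cells of several gates kept 6 (late) and 0 (Leydig-like). Plain totals gave 2 (pachytene-like) and 1 (Leydig-like), and relative log expression factors 2 (Leydig-like). In that order 2.85%, 2.43% and 2.44% of all genes were called. Leaving out 1 library gave 5 to 45 (whole testis), 3 to 41 (early), 5 to 36 (pachytene-like), 7 to 34 (late), 0 to 48 (round), 3 to 26 (elongating), 1 to 17 (Leydig-like), 0 to 1 (macrophage-like) and 0 to 1 (lymphocyte-like). Without somatic cells the whole testis had 12. No share of all genes is given for the fits without somatic cells, without filter, with stricter gates or with several gates kept. Those counts therefore have no background beside them. The cause of these shifts was not tested.

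Same-numbered libraries did not deviate together over all tested genes (correlations of -0.03 to 0.04). A pairing that moves only some genes could leave such values, so whether the numbers pair the libraries stays undecided. With the replicate block 25 members were called in the whole testis, 5 in early spermatocyte-like, 3 in pachytene-like, 3 in round spermatid-like and 14 in Leydig-like cells, where 39.5%, 2.53%, 4.03%, 1.60% and 3.85% of all genes were. Step counts with both directions added stayed within 1.5 times, while their split moved with the scaling. Without the paralogs and Rps19bp1 the shares of UMIs were 3.79% (whole testis), 5.70% (early), 4.504% (pachytene-like), 3.70% (late), 3.03% (round), 2.71% (elongating), 4.71% (Sertoli-like), 9.25% (lymphocyte-like) and 5.24% (fibroblast-like). With stricter gates they were 8.86% (spermatogonia-like), 6.24% (early), 4.62% (pachytene-like) and 5.67% (fibroblast-like).

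Depth limits the X-linked genes in meiotic and later cells, whose levels lay under those of barcodes in no class, and the classes with few cells.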
